A study of Trichechus manatus latirostris with 11 samples.

Results

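ZNF-named zinc finger genes were taken as every transcript record of the deposited red tide table whose RefSeq symbol in the TriManLat1.0 manatee assembly starts with ZNF and a digit. The rule found 124 of 15298 records, which stand for 121 of 9641 different symbols. ZNF189, ZNF451 and ZNF800 each had more than 1 record. The buffy coat, the layer of white cells and platelets of centrifuged blood, was sampled from adult Florida manatees. The red tide group held 4 animals treated at Lowry Park Zoo for illness caused by a toxic algal bloom. Per the paper, 2 of them were sampled on arrival and 2 after a week of treatment. The control group held 7 animals, 4 from Crystal River, 2 from the Indian River Lagoon and 1 recovering from pneumonia at Lowry Park Zoo. Ribosomal and globin RNA were depleted from every sample before RNA-seq.

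The table gives no value of a single animal. It lists a mean of normalised reads (reads divided by the size factor of the library) over 4 libraries, over 7 libraries and over all 11. The columns do not name their groups. Group sizes and the title of the table put red tide in the 4-library mean and control in the 7-library mean. The deposited fold divides the second mean by the first and is read in the paper as red tide over control, which points the other way. The means are therefore named by their number of libraries, and no direction is given for an illness. For weak genes the reads of each library could be recovered from the mean, because a mean is a sum of whole reads with a fixed worth in each library. This gave all 4 libraries for 82 ZNF records and all 11 libraries for 22. These libraries are not linked to animals and are named by size factor, which was 1.56, 1.03, 0.62 and 0.37 in the 4 libraries and ran from 0.702 to 1.73 in the 7.

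Most ZNF proteins carry rows of C2H2 fingers, short folds that hold a zinc ion and read a few bases of DNA. Many also carry a KRAB domain, which recruits the corepressor TRIM28 and enzymes that write repressive histone marks, and many of these silence transposable elements. Others have left this plan and act in RNA handling, SUMO transfer, DNA repair or ribosome assembly.

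ZNF records were nearly evenly split by which mean was higher. In 60 of 124 records the mean over 4 libraries exceeded that over 7, beside 56.4% of all records, and in 64 it was smaller. Ratios are given as log2 of the first over the second. Their median was -0.10, with quartiles of -0.64 and 0.68, against a median of 0.14 and quartiles of -0.44 and 0.94 over all records. At least 2-fold higher in the 4-library mean were 22 ZNF records (17.7%), beside 23.9% of all records. At least 2-fold higher in the 7-library mean were 15 (12.1%), beside 10.4%. At 1.5-fold the counts were 36 and 33 of 124, beside 33.8% and 20.2% of all records, and at 4-fold 8 and 5, beside 12% and 2.27% of all records. The median of all records lay 0.14 above 0, so the ratios were also centred on it. The split of ZNF records was then 52 above and 72 below, and 16 (12.9%) were at least 2-fold above and 22 (17.7%) at least 2-fold below, beside 21.4% and 13.1% of all records. Among ZNF records the side with more 2-fold records thus changed with the centring.

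**Figure D1:**
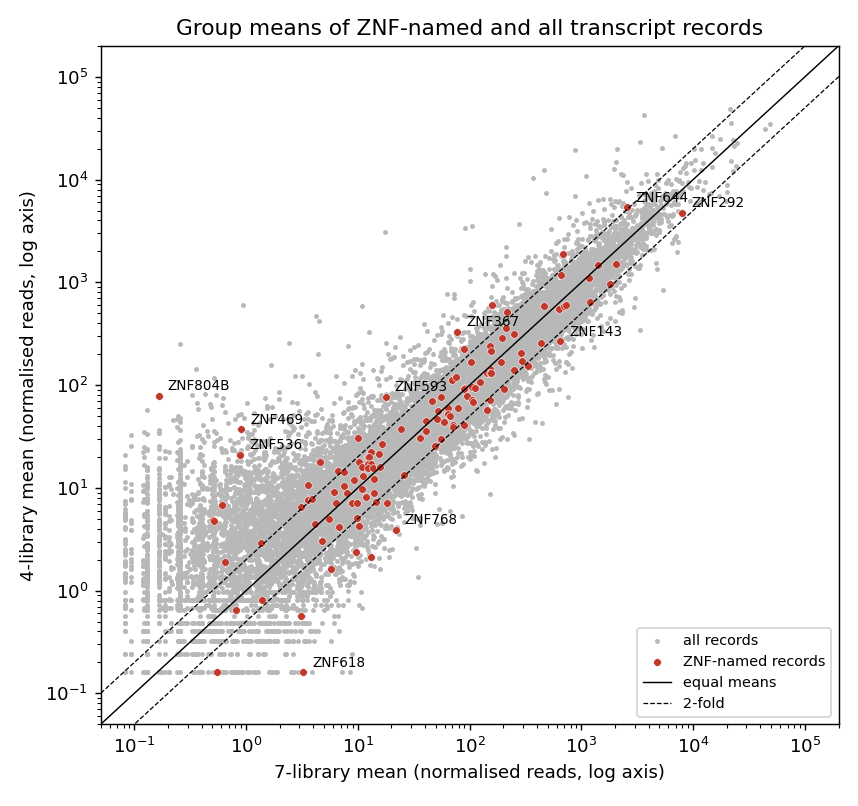
The 4-library mean (vertical, normalised reads, log axis) is plotted against the 7-library mean (horizontal, normalised reads, log axis) for 15298 transcript records in grey and 124 ZNF-named records in red, with lines at equal means and at 2-fold. The ZNF records follow the diagonal, and ZNF804B lies farthest above it.

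Ratios past 2-fold were found at every level. Among the 32 ZNF records with an overall mean under 10, 12 (37.5%) were at least 2-fold higher in the 4-library mean and 7 (21.9%) in the 7-library mean, beside 47.3% and 12.1% of all records of that range. All records of that range had a median log2 ratio of 0.87, and the ZNF records had 0.12. Among the 92 ZNF records with an overall mean of at least 10, 10 were at least 2-fold higher in the 4-library mean, beside 12.3% of all such records, and 8 in the 7-library mean, beside 9.59%. These counts are 10.9% and 8.70% of the 92. Their median was -0.11, beside -0.01 over all records of that range. The overall mean holds both groups, so a record can reach 10 through its higher group alone. ZNF804B (means of 78.6 and 0.165) and ZNF469 (37.4 and 0.904) did so, and the ratio itself thus had a part in the entry. The 40 strongest, with an overall mean of 100 or more, had quartiles of -0.75 and 0.59, and the 5238 strongest records of the table had quartiles of -0.48 and 0.42. At least 2-fold higher in the 4-library mean were 6 of the 40 and in the 7-library mean 5 (12.5%), beside 8.76% and 8.09% of all records of that range. Of the 52 ZNF records between these ranges 4 (7.69%) and 3 (5.77%) were so, beside 16.0% and 11.2%. The ZNF shares thus lay above those of all records in the strongest range and below them in the middle one, in counts of 3 to 6 records that were not tested.

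**Figure D2:**
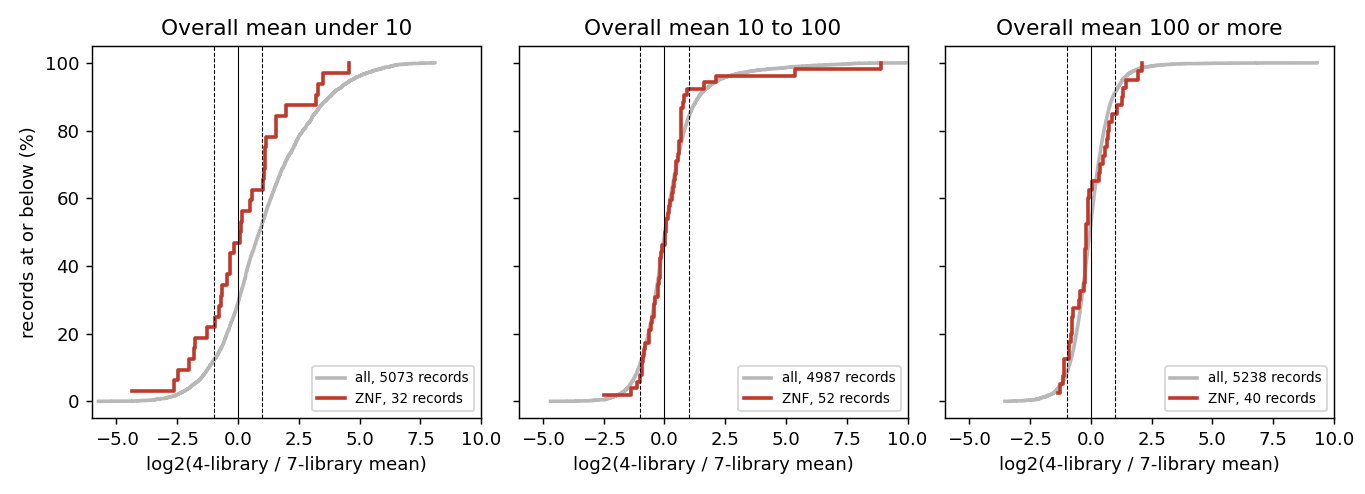
Each panel gives the share of records (vertical, percent) at or below a given log2 ratio (4-library mean divided by 7-library mean, horizontal), for ZNF records in red and all records in grey, split by overall mean. Dashed lines mark 2-fold. Under an overall mean of 10 the ZNF curve lies to the left of the curve of all records, with medians of 0.12 and 0.87.

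Other families of similar name were described in the same way. ZBTB-named genes, zinc finger proteins with a BTB domain for pairing, had a median log2 ratio of 0.33 in 32 records. ZSCAN- and ZKSCAN-named genes, which carry a SCAN domain, had -0.18 in 9 records. ZFP-named genes had 0.50 in 8 records and -0.66 in the 5 with an overall mean of at least 10. ZC3H-named genes, mostly RNA-binding proteins with CCCH fingers, had 0.09 in 10 records. TRIM-named genes had -0.07 in 27 records. Of these, 7 (25.9%) were at least 2-fold higher in the 7-library mean, beside 10.4% of all records. In the 4-library mean 3 (11.1%) were so, beside 23.9%. No test of a difference between families was made.

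The ZNF genes with the highest overall means lay within or near 2-fold. ZNF292, a very large finger protein linked to brain development, had the highest, with a 4-library mean of 4743 and a 7-library mean of 7966, a log2 ratio of -0.75. ZNF644, a partner of the histone methyltransferases EHMT1 and EHMT2, had 5401 and 2542, which is 2.12-fold higher in the 4 libraries. Centred on the median of all records its log2 ratio was 0.95, within 2-fold. These highest 2 genes thus stood in opposite order in the means. The main record of ZNF451, a SUMO ligase, had 1498 and 2038, and ZNF148, which binds GC-rich promoters, had 969 and 1794. Centred in the same way, ZNF148 had a log2 ratio of -1.03, past 2-fold. ZNF407 was nearly equal at 1463 and 1408. Means of this size are beyond the range in which single libraries were recovered, so no spread between animals can be given for them.

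Of the ZNF records with an overall mean of at least 10, ZNF804B had the largest ratio, and it reached that mean through the 4 libraries alone. It is a relative of ZNF804A, a gene studied in psychiatric genetics, and is known mainly from neural tissue. Its 4 libraries held 0, 9.74, 168 and 137 normalised reads in the order of size factors above, and its 7 libraries held 1.16 in a single library and 0 in the others. One of the 4 libraries thus lay at 0 with most of the 7, and a pair of libraries carried nearly all of the 165 reads. The ratio of the means was 476 and rested on 2 reads in the 7 libraries, both in the same library. Its 95% Poisson interval of 132 to 3933 covers only the counting error of those 2 reads. Whether they are the 2 ends of 1 fragment was not tested. The log2 ratio of 8.90 was 8.21 without the library of size factor 0.62 and 6.09 with a pseudocount of 1 added to both means. ZNF804A was not analysed here.

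ZNF469 is a very large protein whose loss causes brittle cornea syndrome. Among the 22 ZNF records with 11 recovered libraries it had the clearest separation. Its 4 libraries held 19.2, 6.81, 48.4 and 75.3 normalised reads. Its 7 libraries had a median of 0 and a highest value of 3.61. Every one of the 4 libraries lay above every one of the 7, an arrangement that 2.8% of the 4428 records with 11 recovered libraries also showed. The ratio of the means was 41.4, and its log2 value of 5.37 was 4.78 without the library of size factor 0.37 and 4.34 with the pseudocount.

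The other records of this group with a higher 4-library mean were measured at higher levels in the 7 libraries. ZNF593, a small protein of ribosome assembly, held 109, 99.3, 35.5 and 64.6 normalised reads in the 4 libraries, each above its 7-library mean of 17.8. ZNF367 had means of 329 and 77.1, a ratio of 4.27. ZNF304, a KRAB zinc finger protein, had 606 and 158, a ratio of 3.84. ZNF112 had a ratio of 3.06 that rested on the libraries of size factor 0.62 and 0.37, with 51.6 and 64.6 normalised reads, while the remaining 2 held 1.28 and 4.87, below the 7-library mean of 9.98. Its log2 ratio of 1.61 was 0.95 with the library of size factor 0.37 left out. The stronger record of ZNF800 had a ratio of 2.75, and its weaker record had a log2 ratio of 0.67. ZNF177 had a ratio of 2.49, and ZNF280C, which acts in the repair of DNA breaks, had 2.42.

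In favour of the 7 libraries, ZNF768 had the largest ratio, 5.56, among ZNF records with an overall mean of at least 10. Its 4 libraries held 4.49, 0.974, 4.84 and 5.38 normalised reads, each below its 7-library mean of 21.8, and together 13 reads. ZNF213 held 5.13, 7.79, 12.9 and 2.69 against a 7-library mean of 18.4. ZNF70 held between 38.7 and 56.5 normalised reads in 3 of the 4 libraries and more in the remaining one, against 144. These genes and the next ones had every recovered library below the 7-library mean. ZNF740 held 68.6, 62.3, 91.9 and 64.6 against 152. ZNF713 held 10.9, 31.2, 51.6 and 69.9 against 88.4, and its log2 ratio of -1.11 became -0.80, within 2-fold, once the lowest of these libraries was dropped. ZNF784 and ZNF687, a subunit of a chromatin complex with ZNF592, were just inside 2-fold, with ratios of 1.99 and 1.92, and were past it when centred, at -1.13 and -1.08.

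Some genes of this group are too abundant for single libraries to be recovered. ZNF143, an activator of small nuclear RNA and many other promoters, had means of 269 and 645, a ratio of 2.40 in favour of the 7 libraries. ZNF638, which helps to silence unintegrated retroviral DNA, had 91.3 and 201, a log2 ratio of -1.14. ZNF146, a protein made almost wholly of fingers, had 153 and 333, a ratio of 2.18. A list of 48 ZNF members with a described role matched 27 records. Some genes given a role here, such as ZNF593, ZNF280C and ZNF618, were not on it. Of the 27 records, 3 were at least 2-fold higher in the 4-library mean (ZNF804B, ZNF703 and ZNF644), beside 23.9% of all records. In the 7-library mean 2 were so (ZNF143 and ZNF638), beside 10.4%. With ratios centred on the median of all records the counts were 2 and 5, so the side with more of them changed. Their uncentred median log2 ratio was -0.20, beside 0.14 over all records.

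Single libraries decided several ratios. ZNF629 held 1.92, 4.87, 61.2 and 2.69 normalised reads in the 4 libraries. Its log2 ratio was 0.80 with all 4 libraries and -1.68 without the library of size factor 0.62. ZNF366, a regulator of dendritic cells also called DC-SCRIPT, held 2.57, 0, 61.2 and 16.1, and its log2 ratio of 0.70 became -0.99 without the same library. ZNF668 held 8.98, 13.6, 1.61 and 64.6, and its log2 ratio of 0.76 became -0.70 without the library of size factor 0.37. These 3 genes were chosen after their values were seen. In each, a single library lay far above the others, and in ZNF366 and ZNF668 a second one also exceeded the 7-library mean.

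**Figure D3:**
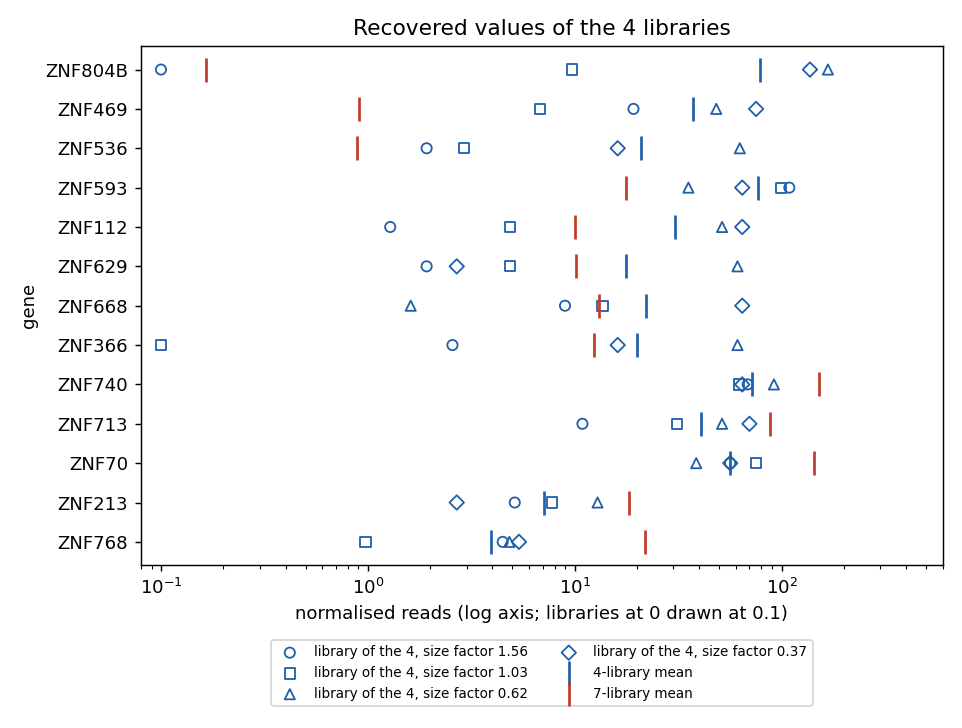
Normalised reads (horizontal, log axis, libraries at 0 drawn at 0.1) of each of the 4 recovered libraries (open blue symbols, 1 shape for each library) with the 4-library mean (blue bar) and the 7-library mean (red bar), for recovered ZNF records past 2-fold with an overall mean of at least 10 and for ZNF536, ZNF629, ZNF366 and ZNF668. The 4 libraries of ZNF740 lie together at 62.3 to 91.9, while those of ZNF629 run from 1.92 to 61.2.

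Across the 82 ZNF records with 4 recovered libraries, 8 (9.76%) had every library above the 7-library mean, beside 10.1% of 9632 records of the table. Every library lay below it in 18 (22.0%), beside 17.3%. The remaining 56 had libraries on both sides. Among the 47 with a 7-library mean of at least 10, 2 (4.26%) had all libraries above and 15 (31.9%) all below, beside 8.96% and 31.0% of all such records.

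The 4 libraries differed in where they placed the ZNF genes. Over those 47 records, each library was divided by the 7-library mean, and the median log2 value was -0.82 and -0.81 in the libraries of size factor 1.56 and 1.03, and -0.35 and -0.28 in those of 0.62 and 0.37. Over all 4217 records of the same range the medians were -0.36, -0.44, -0.37 and -0.28. By medians, the first 2 libraries thus placed ZNF genes lower than other genes, and the last 2 placed them alike. In that of 0.62, 14.9% of ZNF records lay at least 2-fold below the 7-library mean, beside 28.6% of all records. In that of 0.37 these shares were 27.7% and 28.5%. All of these medians lie below 0 in part because a record enters only with a 4-library mean of up to 80. These differences were not tested. Among 16 recovered ZNF records at least 2-fold higher in the 4-library mean, the highest value was in the library of size factor 0.37 for 8 and in that of 0.62 for 5. Of 3016 such records in the whole table it was in these libraries for 45.0% and 39.0%. A normalised read weighs most in the library with the smallest size factor, and its part in these counts was not tested.

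**Figure D4:**
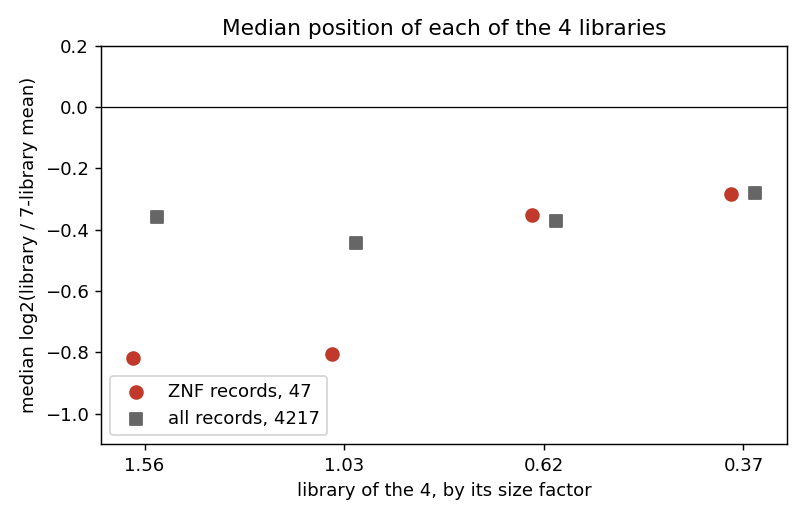
Median log2 value of each of the 4 libraries divided by the 7-library mean (vertical), by the size factor of the library (horizontal), for 47 ZNF records (red circles) and 4217 records of the whole table (grey squares) with a 7-library mean of at least 10. The ZNF medians are -0.82 and -0.81 in the libraries of largest size factor and -0.35 and -0.28 in the others.

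In 22 ZNF records all 11 libraries could be compared by an exact two-sided permutation test over 330 splits, whose smallest p is 0.00606. Entry needed a 7-library mean of up to 6 but allowed a 4-library mean of up to 80. This leaves more room for records higher in the 4 libraries, so the direction of the calls is not read as one of the family. The selection uses the observed 7-library mean, and its effect on the p of single records was not tested. Of the 22 records, 14 had the higher 4-library mean and 8 the higher 7-library mean. An unadjusted p under 0.05 was reached by 6 of the 22, each higher in the 4 libraries, beside 14.3% of 4428 records, and by 0 in the other direction, beside 0.587%. After Benjamini-Hochberg adjustment over the 4428 records, the exact permutation test left 0 ZNF records and 0 records in all under 0.05, and the lowest adjusted p was 0.211. By mean ranks or by log2 values the unadjusted count was 5 and the adjusted count 0.

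ZNF469 had the smallest p of the exact test, 0.00606 (adjusted 0.211), and was higher in 4 of 4 libraries. ZNF536, a repressor of neuronal differentiation, held 1.92, 2.92, 62.9 and 16.1 normalised reads in the 4 libraries and at most 2.56 in the 7. Its exact permutation p was 0.0121 (adjusted 0.266), and its log2 ratio of 4.57 was 2.99 without the library of size factor 0.62. ZNF503 belongs with ZNF703 to a small family of developmental corepressors. It held 3.85, 1.95, 8.06 and 13.5 in the 4 libraries and at most 2.85 in the 7, with an exact permutation p of 0.0121 (adjusted 0.266). ZNF703 held 0.641, 0, 12.9 and 5.38, against 3.62 in 1 of the 7 libraries and 0 in the others, and its exact permutation p was 0.0909 (adjusted 0.399). Its log2 ratio of 3.19 was 1.96 without the library of size factor 0.62 and 1.92 with a pseudocount of 1. The groups overlapped in all 3 of these genes.

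The weaker record of ZNF189 held 12.8, 16.5, 4.84 and 8.07 in the 4 libraries and had a median of 3.61 and a highest value of 8.50 in the 7. Its exact permutation p was 0.0242 (adjusted 0.325), while the other record of the gene had a log2 ratio of 0.14. Without the library of size factor 1.56, or without that of 1.03, this exact p was 0.0667. ZNF454 had an exact permutation p of 0.0424 (adjusted 0.325), which became 0.0545 by log2 values and 0.0727 by ranks, and it was under 0.05 in 4 of the 11 tests with a library left out and up to 0.117 in the others. ZNF804B had 0.0485 (adjusted 0.325) in the exact permutation test, and in 10 of the 11 tests with a library left out its p was above 0.05, up to 0.133. ZNF536, ZNF503, ZNF454 and ZNF189 were chosen for description after their values were seen.

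**Figure D5:**
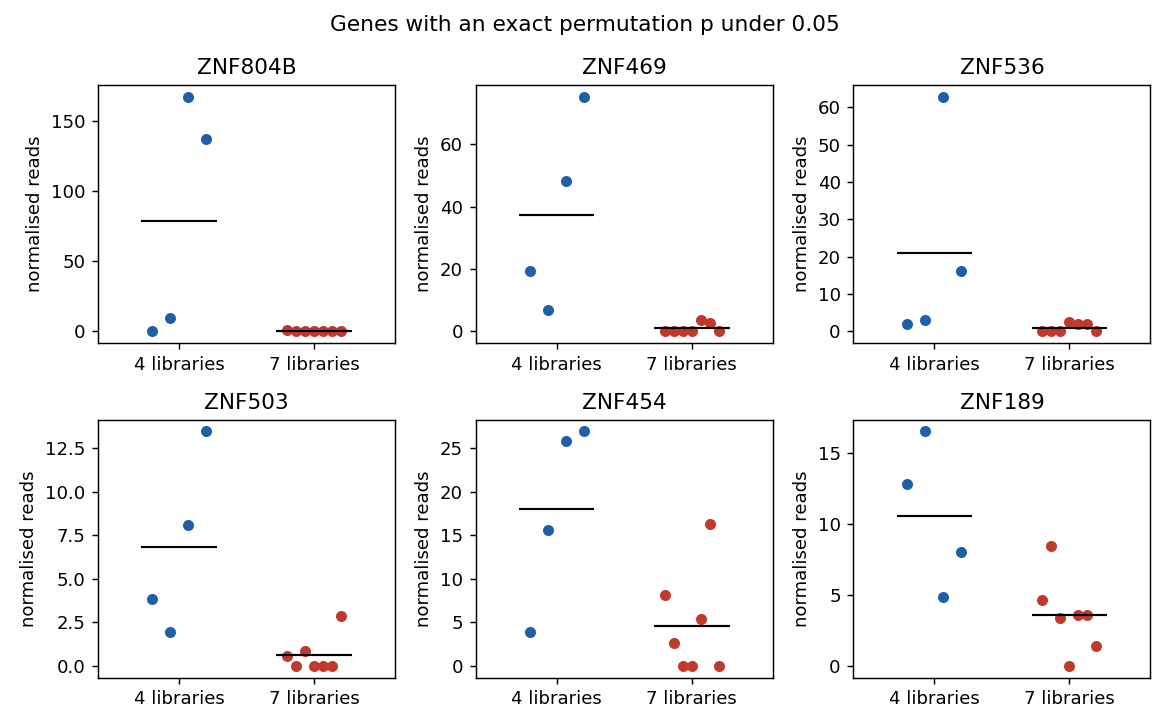
Normalised reads (vertical, linear axis, scaled for each gene) of the 4 libraries (blue) and the 7 libraries (red) for the 6 ZNF records with an unadjusted exact permutation p under 0.05; black lines are means. In ZNF469 the lowest of the 4 libraries, 6.81, lies above the highest of the 7, 3.61, and in the other panels the groups overlap.

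The most weakly supported ratios rested on 1 or 2 reads in the lower group. ZNF618, a protein that binds oxidised methylcytosine, had a ratio of 20.3 in favour of the 7 libraries with 1 read in the 4 libraries, and a 95% Poisson interval of 3.65 to 802. Its 29 reads in the 7 libraries were uneven, with 12.8 normalised reads in 1 library and at most 5.23 in the others. With a pseudocount of 1 its log2 ratio of -4.34 became -1.88. ZNF341, an activator of STAT3 transcription, had a ratio of 5.49 with 2 reads in the 4 libraries and an interval of 1.52 to 45.3. Its log2 ratio of -2.46 was -3.85 without the library of size factor 0.62 and -1.39 with a pseudocount of 1. ZNF23 had a ratio of 3.42 with 1 read and an interval of 0.614 to 135, and its log2 ratio of -1.77 was -0.42 with the pseudocount, within 2-fold. ZNF512 had a ratio of 1.24 with 2 reads and an interval of 0.344 to 10.3, and its log2 ratio of -0.31 ran from -1.31 to 0.10 with a library left out. The intervals of ZNF23 and ZNF512 include equal means, so no difference was detectable at this depth. For ZNF618 and ZNF341 the exact permutation test, which counts the spread between libraries, gave p values of 0.0909 (adjusted 0.399) and 0.273 (adjusted 0.589). Neither was under 0.05, on the side where the limit for entry leaves less room. With ZNF804B, these were the only 5 ZNF records whose lower mean rested on 3 recovered reads or fewer.

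Gene span in the annotation, introns included, followed the level of the ZNF genes more than their ratio. Over 124 ZNF records Spearman's rho was 0.41 between span and overall mean and -0.13 between span and log2 ratio. Over 10080 records with a symbol the values were 0.17 and -0.09. These are descriptions across genes, which are not independent replicates. Transcript length was not used here, so levels of different genes are not ranked per length.

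The matched partners of KRAB zinc finger proteins had as many 2-fold records on each side of equal means. Of 34 listed symbols 20 had a record, and TRIM28 and SETDB1 were not among them. Of 22 records of this machinery, 4 were at least 2-fold higher in the 4-library mean and 4 in the 7-library mean, beside 23.9% and 10.4% of all records. Their median log2 ratio was -0.13, beside 0.14 over all records. UHRF1, which reads hemimethylated DNA, had the largest log2 ratio, 1.38, with means of 30.6 and 11.8. EHMT2, a methyltransferase of histone H3 lysine 9, had the smallest, with means of 2.18 and 8.72. HDAC1, the most abundant, was nearly equal at 2864 and 2905. With the ratios centred on the median of all records, 1 record of the list was 2-fold higher in the 4 libraries and 4 in the 7. With a pseudocount of 1 the counts were 2 and 3, so their equality depended on the processing.

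Neutrophil and platelet markers had median ratios farther from equal means than the ZNF genes. Of 16 neutrophil records, 12 were at least 2-fold higher in the 7-library mean and 1 in the 4-library mean, beside 10.4% and 23.9% of all records. Their median log2 ratio was -1.92. Their summed level was 6801 in the 4-library mean and 20431 in the 7-library mean. Their smallest log2 ratio was -3.32 (MMP9, a secreted protease) and their largest 2.80 (OLFM4, a granule protein). In bulk samples fewer cells of a type and less RNA per cell cannot be told apart. All 5 platelet records had the higher 4-library mean, 4 of them by at least 2-fold, beside 23.9% of all records. Their summed levels were 10555 and 3410, and log2 ratios ran from 0.81 in GP1BA to 2.17 in TUBB1, the highest in overall mean.

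Lymphocyte and monocyte markers lay closer to equal means. The 13 T cell records had a median of 0.24, from -1.22 in CD2 to 1.31 in a weak record of LEF1, and summed levels of 7371 and 6446, of which IL7R held the most. The 7 B cell records had a median of -0.17, from -1.07 in CD22 to 0.40 in POU2AF1, and summed levels of 942 and 988, with MS4A1 highest in the overall mean. The 9 monocyte records had a median of -0.14, with the smallest value, -2.63, in CCR2, and summed levels of 1930 and 2145, with CSF1R highest in the overall mean. Only 2 NK cell records were matched, EOMES at -2.08 and PRF1 at 0.36, with sums of 7.94 and 9.60. The 5 erythroid records had a median of -0.07, from -1.48 in ALAS2, the highest in overall mean, to 1.41 in KLF1, and sums of 644 and 817.

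Immediate early genes, which respond within minutes to stimulation or handling of cells, had the higher 4-library mean in all 15 records, and 12 of them passed 2-fold, beside 23.9% of all records. Their median log2 ratio was 2.59. They ran from 0.83 in DUSP1, the highest in overall mean, to 5.97 in FOSL1, with summed levels of 27299 and 7298. Of 12 records of genes listed as not expressed in leukocytes, 10 were at least 2-fold higher in the 4-library mean. The share was 23.9% over all records and 47.3% over those with an overall mean under 10, where 4 of the 12 lay. The median was 2.07, and values ran from 0.64 in NEB to 6.02 in LRP1B. Their summed levels were 2085 and 495, and TTN held the most, 1617 and 311. NEB had 168 and 108, so the label is that of the list and not a result of these data. ZNF804B, ZNF469 and ZNF536 stood on the same side of equal means as this list. So did 60 of 124 ZNF records in all, beside 56.4% of all records. The part of cell makeup, of handling or of RNA from other tissues in the ZNF ratios was not tested.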

How the data were processed

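RNA-seq was made from the buffy coats of 11 manatees, 4 with red tide illness and 7 controls. Per the submitters' processing notes, FastQC, cutadapt, Bowtie2, SAMtools, DESeq and edgeR were used; versions are not stated there. The authors' deposited values are a signal: read counts scaled by the size factors of DESeq and averaged, once for each group and once over all libraries. Their columns of fold change, log2 fold change, p-value and adjusted p-value were not used; the fold is the second mean over the first in all 15298 rows to within a hundred-thousandth part, tested on the ratio alone. No column of a single sample was left aside (0 columns).

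Symbols were matched by transcript record without version to the TriManLat1.0 RefSeq table for 10080 rows. What 1 read is worth in each library was found from the lowest means. Recovered reads were used if no other whole-read combination gave the same mean. This held for 9632 of 9634 rows whose 4-library mean did not exceed 80, and for 4446 of 4505 whose 7-library mean did not exceed 6. The procedure and the exact permutation test were tested on simulated data. The table gives no total of reads per library, so only size factors, which are relative, were used for depth. Because the size factors differ by up to 4.66 times, libraries differ in precision. Intervals are 95% Poisson intervals for the reads of the lower group and take the higher mean as exact. They cover that counting error only and treat reads as independent. The paper describes paired-end reads. Among recovered 7-library records, library values of 2 reads (3986) outnumbered those of 1 read (2469). Whether both ends of a fragment were counted was not tested. That libraries came from separate animals rests on the labels and on the paper, which lists a different manatee for each sample. Python 3.11.15, NumPy 2.4.6, pandas 2.3.3 and SciPy 1.17.1 were used.

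Named were, with an overall mean of at least 10, the 10 largest ratios each way; records whose lower mean rests on 3 reads or fewer (up to 10); the 5 highest means; ZNF804A and ZNF804B; members with a described role past 2-fold; records without overlap; and the extremes of each other list, of which some values are not reported here. Members and lists were chosen with earlier results of these data known. Protein features were planned but not analysed here, because no protein sequences were used. Alternatives concerned the pseudocount, low means, 1 row per symbol, centring, the fold, the recovery limit, the test statistic and leaving out libraries.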

Additional observations from a re-analysis of the deposited data

Results flagged for a closer look

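Among recovered ZNF records, 8 of 82 groups of 4 libraries and 6 of 22 groups of 7 libraries held a library far from the others, with a gap that takes most of the range of the group. The threshold is set so that chance flags about 1 in 20 groups, a rate that was not checked for counts of so few reads. Groups in which a single library holds the only reads always stand out this way. The share over all recovered records is not given here, so these counts are not read as a trait of ZNF genes. The values are normalised reads.

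Among the 4 libraries, ZNF629 had a highest value of 61.2 beside a next one of 4.87, and ZNF324 had 38.7 beside 8.07. ZNF133 had 11.7 beside 3.22. In ZNF444 the lowest library was at 0.0 and the next at 5.38. A single library held all reads of ZNF319 (6.45), ZNF581 (3.21), ZNF23 (0.641) and ZNF618 (0.641).

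Among the 7 libraries, ZNF618 had a highest value of 12.8 beside 5.23, ZNF341 had 11.4 beside 4.53, and ZNF697 had 5.88 beside 1.81. ZNF503 had 2.85 beside 0.839. A single library held all reads of ZNF703 (3.62) and of ZNF804B (1.16). What sets these libraries apart was not tested.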

How the results depend on the processing

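No paired analysis was possible because the deposited columns carry no replicate numbers. The median log2 ratio of ZNF records, -0.10, became -0.24 with centring. This shift, and those under a pseudocount of 1, a minimum overall mean of 10 and 1 record per symbol, were smaller than the standard deviation of the 4 library medians over the 47 recovered records. With that minimum mean, 10 ZNF records were at least 2-fold higher in the 4-library mean and 8 in the 7-library mean. Without it the counts were 22 and 15, over more records. A record can reach the minimum through its higher group alone. At 1.5-fold the counts were 36 and 33, beside 33.8% and 20.2% of all records, and at 4-fold 8 and 5, beside 12% and 2.27%.

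In the 82 recovered records, dropping the 4 libraries 1 at a time (leave-one-out) moved the median log2 ratio from -0.04 to between -0.21 and 0.14, so its sign is not fixed. The counts at 2-fold moved from 16 to between 13 and 18 for the 4-library mean and from 12 to between 15 and 17 for the 7-library mean. Records with every library above or below the 7-library mean numbered 7 and 22 with that mean shifted by 0.14, and 6 and 12 with a 4-library mean of up to 40. Of the 22 records tested, 4 to 6 had an unadjusted exact permutation p under 0.05 with any 1 of 11 libraries left out.

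Alternatives for the other lists were chosen after seeing the data. With the KRAB machinery, a pseudocount of 1 left 2 records 2-fold higher in the 4 libraries and 3 in the 7. The minimum mean left 2 each way, and centring left 1 and 4. With the minimum mean the neutrophil median was -2.29, with 0 records 2-fold higher in the 4 libraries, and 0 T cell and 0 erythroid records were so. A pseudocount of 1 also left 0 T cell records. It gave medians of -0.53 for NK cell, 2.17 for immediate early and 1.47 for genes listed as not expressed in leukocytes. Of the last list 6 records were 2-fold higher in the 4 libraries with the minimum mean. Centring put 2 B cell records at 2-fold higher in the 7 libraries. The cause was not tested. No ZNF gene named by the fixed rule and past 2-fold changed sign under the alternatives run for it. Libraries could be left out only for recovered records, so not for ZNF367, ZNF304, ZNF800, ZNF177, ZNF280C, ZNF644, ZNF146, ZNF638 or ZNF143. The extremes of the other lists were not tried gene by gene. ZNF629, ZNF366 and ZNF668, named after their values were seen and within 2-fold, changed sign without 1 library (log2 ratios of -1.68, -0.99 and -0.70). Among the 22 records 2-fold higher in the 4 libraries, ZNF324 and ZNF697 also changed sign, from 1.13 to -0.06 when the 0.62 library was dropped and from 1.10 to -0.19 when the 0.37 library was. ZNF23 and ZNF618 gave no value without the library that held their only read. Recovery of reads from group means limits single libraries to weak genes, and the spread of strong ZNF genes between animals is unknown.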
